A study of Homo sapiens with 3 samples.

Results

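A set of 10 genes that mark differentiated colon epithelium, CDX1, CDX2, HNF4A, VIL1, KRT20, MUC2, TFF3, FABP1, CEACAM5 and A1CF, was followed across 3 expression arrays of a colorectal cancer cell line. Every probe set whose only gene symbol in the platform annotation was one of these genes was taken. This gave 16 of the 54675 probe sets on the array and 9 of 19775 genes, and HNF4A had no such probe set and was not analysed here. The sample labels name the line SW620, whereas the series' design text names SW480, and the sample labels are followed below. The control cells carried an empty-vector virus. The LATS2 cells carried a virus for full-length LATS2, a protein kinase that acts in Hippo signalling, and the LATS2N cells carried one for residues 1 to 625 of LATS2, which end before its kinase domain. All cells were of the same labelled line, had been infected with a virus and grew in medium with serum. The labels do not say whether each line was a clone or a pool.

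The colon epithelium is renewed from stem cells at the base of the crypts, whose daughters become absorptive colonocytes, mucus-secreting goblet cells or hormone-producing cells as they move up. The homeobox factors CDX1 and CDX2 and the nuclear receptor HNF4A hold intestinal cells in their identity and switch on genes of the mature cell. Among these are VIL1 (villin, which bundles actin in the microvilli), KRT20 (a keratin of surface cells), FABP1 (a fatty acid carrier), MUC2 and TFF3 (the gel-forming mucin and a trefoil peptide of goblet cells) and CEACAM5 (the carcinoembryonic antigen). A1CF is the RNA-binding partner of the enzyme that edits APOB mRNA. Colorectal cancer lines keep this programme to very different degrees.

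CDX proteins bind AT-rich DNA with the core letters TTTATG, which read CATAAA on the other strand. The 250 bases before the gene start were searched for these letters on both strands, in RefSeq promoters of build GRCh38.p14. Promoters were found for 7 of the 10 genes, with 2 for HNF4A, and not for CDX1, VIL1 and TFF3. The letters occurred in 3 of these 8 promoters, those of FABP1, MUC2 and KRT20, and in 9.64% of all 35116 promoters of that length. The FABP1 match began 89 bases before the start, that of MUC2 176 bases before it and that of KRT20 29 bases before it. The letters TATAAA, which differ from CATAAA in the first letter only, occurred in the promoters of FABP1 and A1CF and in 10.7% of all promoters. The 3 promoters with a match are printed here because they share these letters, and that of CDX2, which holds no match, is shown for comparison. Capitals mark the match. The FABP1 sequence is chr2:88128063-88128312, minus strand, the MUC2 sequence chr11:1074624-1074873, plus strand, the KRT20 sequence chr17:40885243-40885492, minus strand, and the CDX2 sequence chr13:27969316-27969565, minus strand, each written on the strand of its gene.
FABP1: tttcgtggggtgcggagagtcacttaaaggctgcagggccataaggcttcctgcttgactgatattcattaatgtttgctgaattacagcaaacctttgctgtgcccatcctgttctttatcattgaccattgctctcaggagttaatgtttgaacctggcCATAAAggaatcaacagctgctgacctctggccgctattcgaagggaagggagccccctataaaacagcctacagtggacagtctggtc
MUC2: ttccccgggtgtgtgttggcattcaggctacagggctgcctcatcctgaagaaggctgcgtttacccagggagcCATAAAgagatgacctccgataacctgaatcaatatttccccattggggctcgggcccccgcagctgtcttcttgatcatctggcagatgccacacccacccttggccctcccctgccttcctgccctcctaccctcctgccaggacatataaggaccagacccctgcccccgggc
KRT20: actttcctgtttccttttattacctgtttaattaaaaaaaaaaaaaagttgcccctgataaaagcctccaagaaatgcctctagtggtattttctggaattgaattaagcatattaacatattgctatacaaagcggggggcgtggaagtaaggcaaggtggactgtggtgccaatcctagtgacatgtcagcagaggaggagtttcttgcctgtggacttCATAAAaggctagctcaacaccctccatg
CDX2: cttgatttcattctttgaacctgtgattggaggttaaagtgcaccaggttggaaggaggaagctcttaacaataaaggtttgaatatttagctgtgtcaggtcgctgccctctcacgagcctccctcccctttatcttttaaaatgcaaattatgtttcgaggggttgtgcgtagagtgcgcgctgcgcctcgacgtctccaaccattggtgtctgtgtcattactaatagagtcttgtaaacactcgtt
A match describes the letters only and is not evidence of binding, which was not measured here.

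Signals are on the linear scale of the MAS5 algorithm, and each array had been scaled to a trimmed mean of 500.1. Array medians lay between 49.4 and 51.1. A floor of 50.5, the median of all signals on the 3 arrays, was set under every signal before ratios were taken, so a ratio with 1 array at the floor is a bound. A difference was called by its size, at 2-fold or more between floored signals, and each gene was read by its brightest probe set. Each group has 1 array, so there is no spread between cultures and no test. The spread between probe sets for the same gene, as a robust SD of the log2 ratio, is given instead. It ranged from 0.40 to 0.43 where the dimmer signal was under 100 and from 0.08 to 0.11 above 2000, and covers noise within an array only. LATS2 itself was measured by 4 probe sets, of which 2 were below the floor on every array and the others read 206, 219 and 219 and 385, 377 and 409 on the control, LATS2 and LATS2N arrays. Which part of the transcript they read is not known here, so they do not check the labels.

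Only part of the set was above the floor. The brightest probe sets of 5 markers, VIL1, TFF3, A1CF, CDX2 and KRT20, were above the floor on all 3 arrays. MUC2, CDX1 and CEACAM5 passed it on 1 array each, and FABP1 on none. By array, 5 of the 9 markers were above the floor on control, 6 on LATS2 and 7 on LATS2N, against 63.3%, 62.9% and 63.6% of all genes. Most general epithelial markers were above it. Of 10 markers of colorectal epithelium, 9 were above the floor on every array, of which CDX2, VIL1 and KRT20 belong to the set itself. EPCAM, an epithelial adhesion protein, read 16608, 18744 and 18756 on the control, LATS2 and LATS2N arrays. The exception was LGALS4, a galectin of intestinal cells, which read 27.7, 55.9 and 39.7. In a second list of epithelial genes, GRHL2 and RAB25 were below the floor on every array. Thus the labelled cell type carried most of its epithelial markers. With 9 markers, counts this near the shares of all genes are no result about the label of differentiated colon epithelium.

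**Figure D1:**
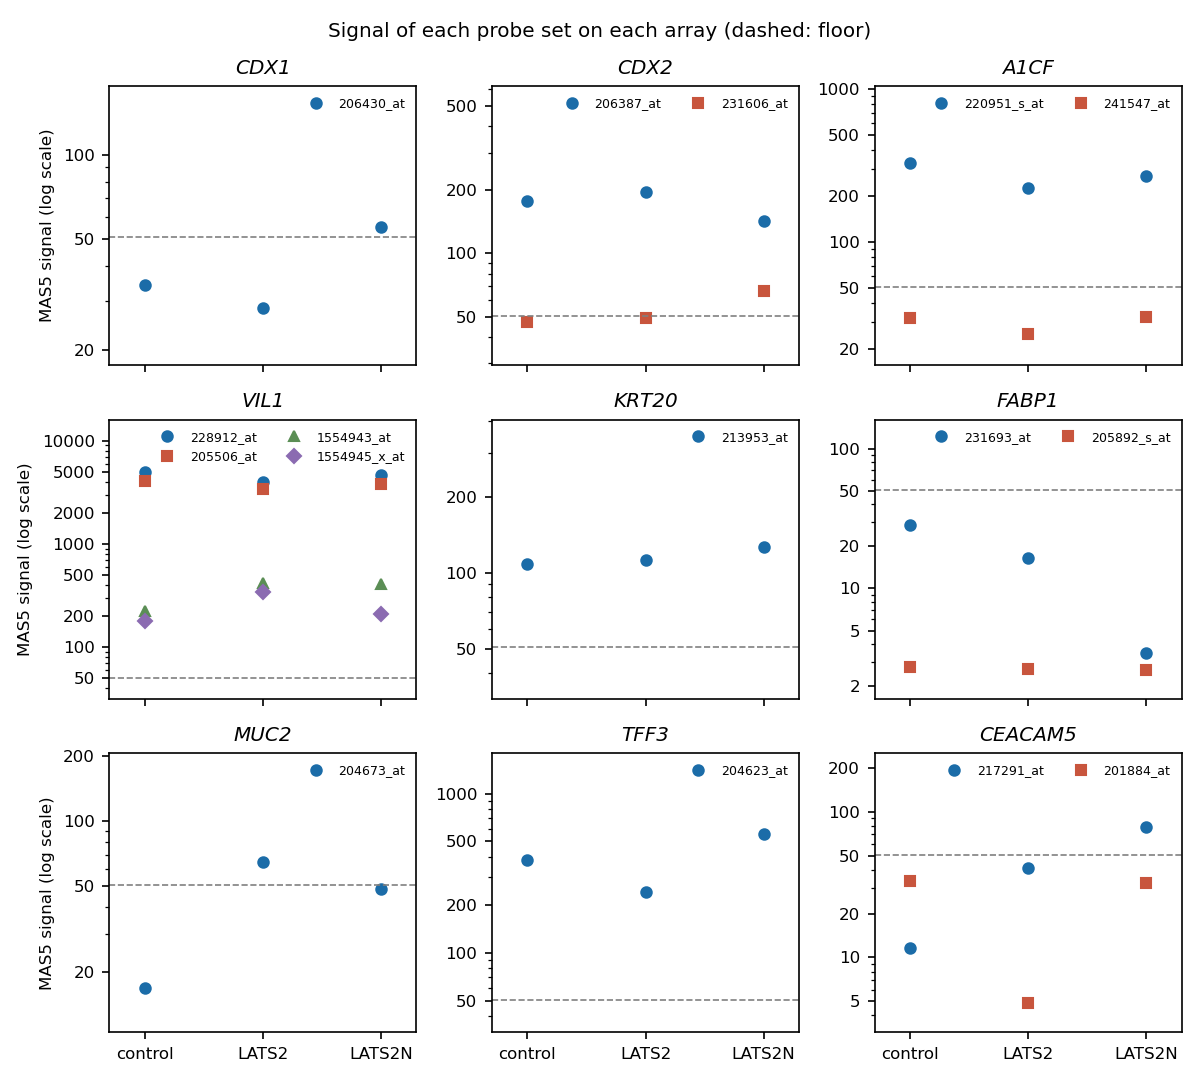
Signal of each probe set (1 panel per gene, 1 symbol per probe set) on the control, LATS2 and LATS2N arrays, on a log scale, with the floor of 50.5 dashed. TFF3 is lowest on the LATS2 array and highest on the LATS2N array, and the 4 probe sets of VIL1 fall into a bright and a dim pair that order the arrays differently.

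None of the measured markers was called at 2-fold between either construct and control, and 1 marker, TFF3, was called between the constructs. MUC2, CEACAM5 and CDX1 have bounds at most and FABP1 has no ratio, so a 2-fold difference is not excluded for any of them. MUC2 and CEACAM5 were called higher on each construct array than on control with a floor at the 25th percentile or none. On the LATS2 array against control, 6 markers reached the floor and none was called in either direction. Of all 13186 genes that reached it, 0.963% were called higher and 0.842% lower, or 1.80% together. Of these 6, 3 had a ratio below 0 and 3 above, and their median log2 ratio was -0.15, against 0.03 over all genes. The sign of this median is not stable, since it was 0.06 with the median over probe sets of a gene and 0.05 without probe sets ending in _s_at, _x_at or _a_at. On the LATS2N array against control, none of 7 markers was called. Of 13245 genes, 0.944% were called higher and 0.566% lower, or 1.51% together. The median of the 7 markers was 0.12 against 0.02 over all genes. In LATS2 against LATS2N, 1 of 8 markers was called lower and none higher, beside 1.00% of 13175 genes called lower and 0.592% called higher, or 1.59% together. Here 6 of the 8 were lower on the LATS2 array, against 47.7% of all genes. The median of the 8 was -0.21, against 0.01 over all genes. With 6 to 8 markers, counts of 0 or 1 are no result about the set as a whole. The first and second comparisons share the control array, and each construct array also enters the third.

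**Figure D2:**
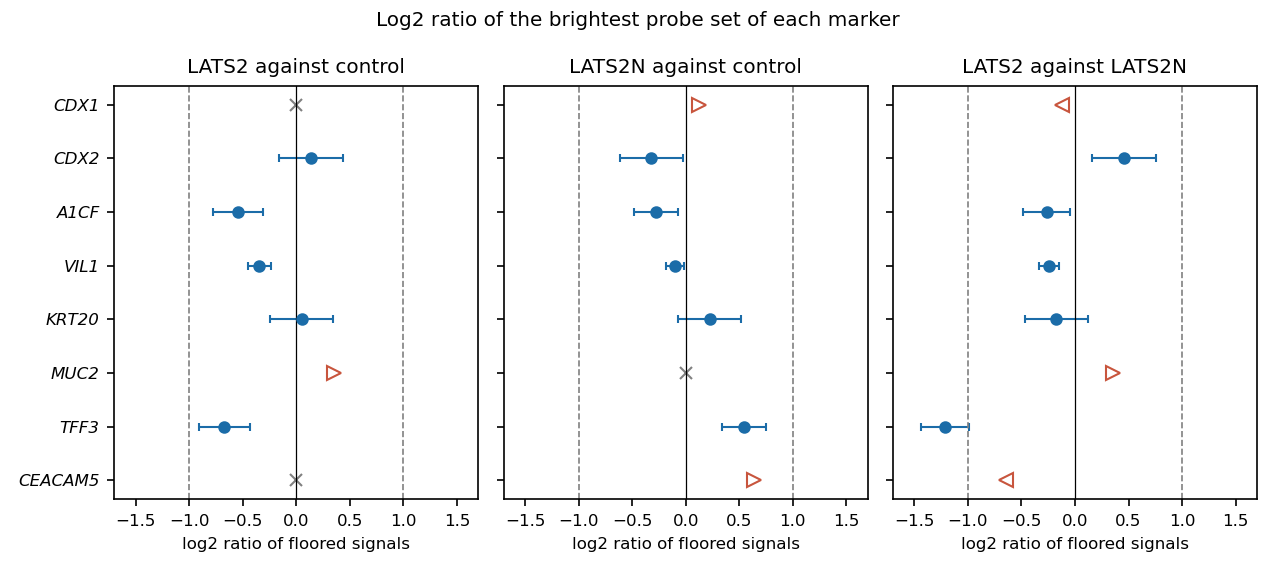
Log2 ratio of the floored signals of each marker's brightest probe set in the 3 comparisons, with dashed lines at 2-fold. Filled circles are ratios of signals above the floor with bars of 1 robust SD between probe sets, open triangles are bounds with 1 array at the floor, and crosses mark markers at the floor on both arrays. FABP1 is left out because it was at the floor throughout, and only TFF3 in LATS2 against LATS2N lies beyond a dashed line.

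TFF3 showed the largest range of the markers above the floor. It encodes a small trefoil peptide that goblet cells secrete with mucin and that helps the epithelium close wounds. Its single probe set, 204623_at, read 384 (control), 241 (LATS2) and 561 (LATS2N). The control thus lay between the constructs, with full-length LATS2 below it and the fragment above it. The LATS2 array was 1.59-fold below control (log2 ratio -0.67, 2.82 times the probe-set SD of 0.24). The LATS2N array was 1.46-fold above control (0.54, 2.65 times the SD of 0.21). Between the constructs, TFF3 was 2.32-fold lower on the LATS2 than on the LATS2N array (log2 ratio -1.22, 5.46 times the SD of 0.22). Of 13175 genes, 55 had a ratio as low or lower in that comparison, or 0.417%. In bulk RNA, fewer cells that express a gene and less RNA per cell cannot be told apart. Of 6 immune and blood markers of other cell types, 5 reached the floor in LATS2 against LATS2N. Of these, 4 were lower on LATS2, against 47.7% of all genes, with a median log2 ratio of -0.37. The summed signal of the 6 was 665 (control), 480 (LATS2) and 774 (LATS2N), with 4 of them above the floor on each array. This sum is over unlike probe sets and was lowest on the LATS2 array, as TFF3 was. HBB, a globin gene, was 2.55-fold lower on the LATS2 than on the LATS2N array. LYZ read 112, 107 and 138 on the control, LATS2 and LATS2N arrays, and CD79A, a B cell marker, 281, 150 and 264. CD3D passed the floor on LATS2N alone, at 24.4, 11.9 and 56.7. CD14, a monocyte marker, was highest on LATS2, at 73.5, 93.2 and 48.4. PTPRC, the pan-leukocyte marker, was below the floor on every array, at 15.7, 19.7 and 15.8. The part of these signals in the TFF3 difference was not tested.

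The 3 trefoil genes are neighbours on chromosome 21 in the RefSeq gene table, and the others were examined with TFF3. TFF1, a trefoil peptide best known from the stomach, read 57.4 (control), 38.9 (LATS2) and 132 (LATS2N). It was 2.29-fold higher on the LATS2N array than on control and at least 2.61-fold lower on the LATS2 than on the LATS2N array. TFF2, which is produced with mucus in the stomach, read 530 (control), 597 (LATS2) and 775 (LATS2N). All 3 trefoil genes were highest on the LATS2N array, whereas on the LATS2 array TFF2 read above control, TFF3 below it and TFF1 at the floor. TFF1 and TFF2 were measured by 1 probe set each. Both belong to the goblet and secretory list described further on.

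By the distance between log2 ratios to control, over 3 arrays and 11533 other genes above the floor on all of them, the 5 genes nearest to TFF3 were MRGPRG-AS1, PRR5L, SLC39A11, S100A3 and HS3ST3A1. Their distances on the log2 scale were between 0.07 and 0.10. S100A3, which encodes a calcium-binding protein, read 3257, 1925 and 4581 on the control, LATS2 and LATS2N arrays. SLC39A11, a zinc transporter gene, read 868, 568 and 1210.25. They were selected for this likeness, which with 2 ratios per gene is a description of these arrays.

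MUC2 and CEACAM5, the other secreted or surface products of the set, stayed near the floor. MUC2, the main gel-forming mucin of the colon, read 16.8 (control), 64.6 (LATS2) and 48.7 (LATS2N) at its only probe set, 204673_at. It was therefore above the floor on the LATS2 array alone, at least 1.28-fold above each of the other arrays. CEACAM5, a cell adhesion molecule used as a blood marker of colorectal cancer, had 2 probe sets, of which 1 passed the floor. The probe set 217291_at read 11.7 (control), 41.2 (LATS2) and 78.7 (LATS2N), so that only LATS2N passed the floor, by at least 1.56-fold over control. The probe set 201884_at read 33.4 (control), 4.90 (LATS2) and 32.4 (LATS2N), below the floor throughout. The LATS2N signal of the first probe set thus has no counterpart in the second.

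Among the factors, CDX2 was above the floor on every array and CDX1 on 1. CDX2, which sets posterior gut identity in the embryo and is kept on in the adult colon, read 177 (control), 194 (LATS2) and 141 (LATS2N) at the probe set 206387_at. Its log2 ratio was 0.14 for LATS2 and -0.32 for LATS2N against control, and 0.46 for LATS2 against LATS2N. These are 0.46, 1.08 and 1.55 times the probe-set SD of 0.29 to 0.30. The other CDX2 probe set, 231606_at, read 47.0, 49.5 and 66.0 on the control, LATS2 and LATS2N arrays, so it was highest where the first was lowest. CDX1, the closest relative of CDX2, read 34.1 (control), 28.2 (LATS2) and 55.0 (LATS2N). Only its LATS2N signal passed the floor, by 1.09-fold.

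VIL1 was well above the floor on every array, and its probe sets disagreed. The probe set 228912_at read 5013 (control), 3948 (LATS2) and 4666 (LATS2N), and 205506_at read 4036, 3393 and 3800. Both were highest on control and lowest on LATS2. The log2 ratios for LATS2 against control were -0.34 and -0.25, which are 3.14 and 2.28 times the probe-set SD of 0.11. For LATS2N against control they were -0.10 and -0.09, about as large as the SD of 0.08. The other 2 probe sets were lowest on control. The probe set 1554943_at read 223 (control), 418 (LATS2) and 409 (LATS2N), and 1554945_x_at read 181, 339 and 210. Both were 1.88-fold higher on LATS2 than on control, at log2 ratios of 0.91, which are 3.82 and 3.08 times the probe-set SD and short of the 2-fold call. On LATS2N they parted, at log2 ratios of 0.88 and 0.21. Which VIL1 transcripts each probe set reads is not known here.

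KRT20, a keratin of the differentiated cells at the top of the crypt, varied by less than the spread between probe sets. Its only probe set, 213953_at, read 109 (control), 112 (LATS2) and 127 (LATS2N). The log2 ratios to control were 0.05 and 0.22, and that between the constructs was -0.17, against a probe-set SD of 0.29 to 0.30. FABP1, which carries long-chain fatty acids in absorptive cells and hepatocytes, was below the floor throughout. Its probe set 231693_at read 28.3 (control), 16.6 (LATS2) and 3.45 (LATS2N), and 205892_s_at read 2.73, 2.64 and 2.60. Values below the floor have no order, and no ratio is given for FABP1.

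A1CF was highest on control. The probe set 220951_s_at read 327 (control), 224 (LATS2) and 269 (LATS2N), and 241547_at was below the floor throughout, at 31.6, 24.9 and 32.1. The first was 1.46-fold lower on LATS2 than on control (log2 ratio -0.55, 2.29 times the SD of 0.24) and 1.21-fold lower on LATS2N (-0.28, 1.36 times the SD of 0.21). In the list of APOB mRNA editing genes, 9 of 10 reached the floor, none was called against control, and 7 were below control on LATS2 and 8 on LATS2N. Over all genes, 45.2% and 46.4% were below control. A1CF is itself counted in this list. The list medians were -0.22 and -0.21 with A1CF and -0.15 and -0.19 without it. RBM47, an RNA-binding protein that can also serve as the partner of the editing enzyme, read 854 (control), 707 (LATS2) and 707 (LATS2N). APOBEC1, the editing enzyme, was dim at 93.8, 80.4 and 54.7, and its substrate APOB was below the floor on every array, at 44.2, 47.2 and 41.1. Other genes of that list that were not called include HNRNPAB at 23900.0, 22565 and 21309 and SYNCRIP, an RNA-binding protein, at 8814, 6658 and 7613.

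**Figure D3:**
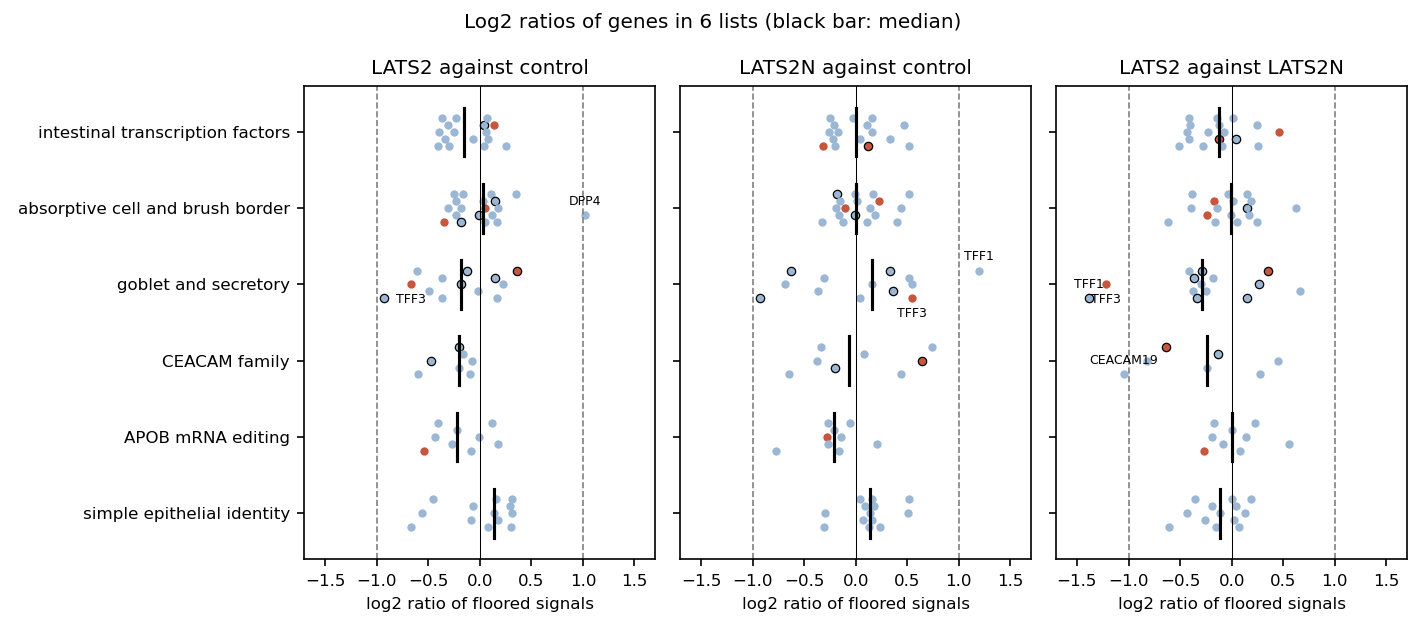
Log2 ratios of floored signals for the genes of 6 lists in the 3 comparisons, with black bars at the list medians and dashed lines at 2-fold. Red points are markers of the set, blue points other genes, and a black outline marks a bound, with TFF3 and the genes beyond 2-fold named. DPP4 is the only listed gene beyond 2-fold in LATS2 against control.

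In the wider differentiation lists, the calls against control were DPP4 on LATS2 and TFF1 on LATS2N. Over all genes, 1.80% and 1.51% were called in these comparisons, and counts of 0 or 1 are no result about a list. Of 24 intestinal transcription factors, 20 had a probe set and 16 reached the floor in either comparison with control, and none was called. Their medians were -0.15 on LATS2 and 0.01 on LATS2N. KLF5, a factor of proliferating crypt cells, read 4498, 3637 and 4403 on the control, LATS2 and LATS2N arrays, and EHF, an epithelial ETS factor, read 2631, 1998 and 2842. KLF4, which is linked to goblet cell maturation, read 1601, 1360.5 and 1346. PPARG, a nuclear receptor of the differentiated colon, read 934, 894 and 1045. HNF4G, the close relative of HNF4A, read 141, 118 and 157. ATOH1, the factor that commits cells to the secretory fate, was below the floor on every array.

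Of 35 absorptive cell and brush border genes, 19 reached the floor in LATS2 against control, and the median was 0.03. On LATS2 1 was called higher, beside 0.963% of all genes, and none lower. The called gene was DPP4, a peptidase of the brush border membrane, which read 177 (control), 360 (LATS2) and 234 (LATS2N), 2.03-fold higher on LATS2. Its other 2 probe sets read 90.3, 162 and 79.8, and 74.8, 160 and 84.4, so all 3 were highest on the LATS2 array. Other genes of the microvillus were not called in any comparison. EZR, which links actin to the membrane, read 5537, 4479 and 4948, PLS1, an actin bundler, read 3987, 4517 and 4550, and USH1C, which holds microvilli together, read 1074, 1203 and 1085. Genes of the mature colonocyte such as SLC26A3, AQP8 and GUCA2A were below the floor on all 3 arrays. On LATS2N, 18 reached the floor, none was called and the median was 0.01.

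Of 25 goblet and secretory genes, 13 reached the floor in either comparison with control. On LATS2 none was called, beside 1.80% of all genes. Of the 13, 9 were below control, against 45.2% of all genes, and the list median was -0.19, against 0.03 over all genes. On LATS2N 1 was called higher, TFF1, beside 0.944% of all genes, and the median was 0.15. In LATS2 against LATS2N, TFF1 and TFF3 were called lower among 14 genes, 10 were lower and the median was -0.29, beside 1.00% called lower and 47.7% lower over all genes. MUC13, a membrane mucin, read 528 (control), 346 (LATS2) and 411 (LATS2N), and its second probe set had the same order. MUC1, another membrane mucin, read 107, 106 and 67.0. AGR2 and CLCA1, typical of goblet cells, were below the floor on every array.

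CEACAM5 lies beside CEACAM6 and CEACAM7 on chromosome 19, and these relatives also read near the floor. Of 12 CEACAM genes 9 had a probe set, and none was called against control. CEACAM6, which is often raised with CEACAM5 in colorectal tumours, read 70.1, 25.2 and 55.5 on the control, LATS2 and LATS2N arrays. Its other probe set was below the floor throughout, at 15.6, 26.0 and 29.4. CEACAM7, normally found on mature colonocytes, read 58.2, 43.3 and 15.5. On LATS2, 7 of 7 genes that reached the floor were below control, with a median of -0.20, and on LATS2N 4 of 8 were, with a median of -0.06. Over all genes, 45.2% and 46.4% were below control in these comparisons, and several of the CEACAM ratios were bounds or close to 0. CEACAM19 read 99.9, 66.0 and 136 and was the list's 1 call between the constructs, 2.06-fold lower on LATS2, beside 1.00% of all genes. Members of this family share sequence, so that signals of their probe sets may be partly shared.

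General epithelial genes outside the differentiation set had no calls, with medians of 0.13 on LATS2 and 0.14 on LATS2N against control over 13 genes. KRT8 and KRT18, the paired keratins of simple epithelia, read 30042 and 43054 on control, 33588 and 47247 on LATS2, and 33065 and 45854 on LATS2N. Of the 13 genes, 5 were below control on LATS2, among them ST14, a membrane protease, at a log2 ratio of -0.56 and CLDN7, a tight junction claudin, at -0.45. CDH1, the adherens junction cadherin, read 4421 (control), 2792 (LATS2) and 3567 (LATS2N). The CDH1 log2 ratio to control was -0.66 on LATS2, which is 6.05 times the probe-set SD of 0.11. On LATS2N it was -0.31, or 3.66 times the SD of 0.08. Of 9 fibroblast and smooth muscle genes, 6 reached the floor in either comparison with control. Of these, 4 were above control on LATS2 and 6 on LATS2N, with medians of 0.17 and 0.45. Over all genes, 45.2% and 46.4% were below control. COL1A2, COL3A1 and PDGFRB were below the floor on every array, and DES and DCN read below control on LATS2 and above it on LATS2N. ACTA2, smooth muscle actin, was at least 2.04-fold higher on LATS2 and at least 1.98-fold higher on LATS2N than on control at 1 of its 3 probe sets. The other ACTA2 probe sets were below the floor, and the gene was not called on LATS2 with the median over probe sets. COL1A1, a collagen chain, read 325, 596 and 607, and LUM read 1519, 1884 and 1635. VIM, vimentin, was bright on all arrays at 10812, 11030 and 12206. Of 3 endothelial genes, 1 was above the floor on each array, PECAM1, at 142, 85.0 and 91.6. The part of these genes in the marker ratios was not tested.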

How the data were processed

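The 10 markers and the gene lists were chosen with earlier results of these data known, and 1 list and 1 listed factor are not reported here. One table of intensities of 3 arrays was used, 1 per group. Per the submitters' processing notes the deposited intensities were made with MAS5, with no version or settings given. Equal trimmed means show scaling to a target of 500, and no other normalization was found. Of 54675 probe sets, 62 were controls, 41091 had 1 gene symbol, 1801 had several and 11721 were not listed. Those with several or none were left out. Symbols were updated through gene identifiers to RefSeq (GRCh38.p14), which matched 41037. A gene was read by the probe set of highest mean log2 signal. Ratios were taken after setting a floor at the median signal, in Python 3.11.15 with pandas 2.3.3 and numpy 2.4.6. The spread between probe sets came from the 2 brightest of each gene, with all 3 arrays above the floor, by the dimmest signal. Each probe set was then given the SD at its own dimmer signal. The brighter probe set of a pair can make this SD too small for a single dim probe set. The number of arrays limits the precision.

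Genes named are the 10 markers, LATS2, list genes called against control, up to 4 bright genes of each list and the 5 nearest to TFF3. Others, such as CDH1, HNF4G, USH1C, CEACAM6, CEACAM7, CEACAM19, ST14, CLDN7, GRHL2, RAB25, RBM47, APOBEC1 and genes below the floor, were chosen after their values were seen. Alternatives were another floor or none, the median over probe sets, no probe sets ending in _s_at, _x_at or _a_at, quantile normalization, median centring, a signal of at least 500, and a call at 1.5-fold.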

Additional observations from a re-analysis of the deposited data

How the results depend on the processing

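With 1 array per group, no array could be left out and no spread between cultures exists. No paired analysis was possible because each group has 1 array. TFF3 was called lower in LATS2 against LATS2N under every alternative except a floor at the 75th percentile, which lies above its LATS2 signal and gave a log2 ratio of -0.64 and 0 calls among the markers. Calls for faint markers came with a lower floor. At the 25th percentile or with no floor, 2 markers, MUC2 and CEACAM5, were called higher on LATS2 and the same 2 on LATS2N against control. The log2 ratio of MUC2 on LATS2 was then 1.94, and that of CEACAM5 on LATS2N 2.44 or 2.75, from signals where its probe sets disagreed. With no floor, FABP1 was the 1 marker called lower on LATS2N against control and the 1 called higher in LATS2 against LATS2N. At 1.5-fold, 1 marker was called lower on LATS2 against control (TFF3), 1 higher on LATS2N against control (CEACAM5) and 2 lower in LATS2 against LATS2N (both). At a signal of at least 500, 2 markers reached that signal in LATS2 against LATS2N, VIL1 and TFF3, with a median of -0.73. The marker median for LATS2 against control, -0.15, turned to 0.06 with the median over probe sets and 0.05 without probe sets of possible shared targets. The marker medians kept their sign under the other alternatives.

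Counts over all genes, given as higher and lower, moved more. For LATS2 against control, 127 and 111 became 814 and 949 at the 25th percentile floor, 9 and 19 at the 75th, 1712 and 1999 with no floor, 73 and 50 with the median over probe sets, 17 and 27 at a signal of at least 500, and 772 and 582 at 1.5-fold. For LATS2N against control, 125 and 75 became 871 and 779, 0 and 1, 1729 and 1769, 64 and 41, 3 and 2, and 644 and 433. For LATS2 against LATS2N, 78 and 132 became 744 and 979, 0 and 20, 1670 and 1983, 42 and 67, 4 and 28, and 563 and 668. Quantile normalization, median centring and leaving out probe sets of possible shared targets kept these counts within 1.5 times. A lower floor admits fainter genes, a higher floor or a signal of at least 500 fewer genes, and 1.5-fold is a smaller call. For the median over probe sets the cause was not tested.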

Other observations

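Hormone-cell genes were nearly absent above the floor. Of 13 enteroendocrine genes with a probe set, 1 was above it on each array, PAX6, at 222, 224 and 195 on the control, LATS2 and LATS2N arrays. CHGA, the general marker of hormone-secreting cells, read 24.0, 16.9 and 17.2.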
